A study of Arabidopsis thaliana with 4 samples.

Results

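Genes numbered AT1G35000 to AT1G47000 lie around the centromere of Arabidopsis thaliana chromosome 1, in the stretch that geneticists call pericentromeric. The members are all genes with a locus number in this range. The rule uses no measured value, although the range was proposed with earlier results of these data known. RefSeq, in its table for TAIR10.1, lists 828 loci in this range, of which 506 (61.1%) are pseudogenes and 307 are protein coding. Array probes matched 264 of the 828 loci, and 181 of these were measured, meaning that on 3 or more of the 4 arrays the scanner software marked a probe of theirs as well above background in either colour, leaving out arrays where the spot was marked as an outlier. Over the whole array, 25347 loci had a probe and 20525 were measured. The 264 loci with a probe are all protein coding, so the pseudogenes that make up most of the range have no value here.

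Each of the 4 arrays compared a pair of RNAs by competitive hybridisation. The green (Cy3) channel held RNA of wild-type Col seedlings, and the red (Cy5) channel held RNA labelled vim1,2,3, which the series names as a triple mutant. Both were whole seedlings aged 14 days, grown under 16 hours of light and 8 hours of dark and harvested 6 hours after the lights came on. The labels give the strain Col for the wild type and give no strain or allele names for the mutant. The series calls the 4 pairs independent biological samples, all arrays lay on a single slide, and the dyes were never swapped, so a dye effect cannot be told apart from genotype. All ratios below are log2 of vim1,2,3 over Col. A gene is said to have risen or fallen where its adjusted p was under 0.05 and its change at least 2-fold. In RNA of whole seedlings, fewer cells of a type and less RNA per cell cannot be told apart.

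Pericentromeric chromatin in plants is rich in transposable elements and their remains, is compacted into heterochromatin, and carries dense DNA methylation, with genes scattered between the repeats. VIM1, VIM2 and VIM3 are SRA- and RING-domain proteins that bind methylated DNA and act with the methyltransferase MET1 to copy CG methylation onto new DNA strands after replication. Loss of this maintenance is known to release transcription from repeats and from some genes that are normally silent in heterochromatin.

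The targeted genes were checked first, and they did not bear out the label on every array. VIM1 was lower on all arrays (log2 ratios of -2.22, -2.46, -1.61 and -0.74, adjusted p = 0.0254), a call lost without array 1 or 3 (adjusted p = 0.0769 and 0.129). The VIM2 probe gave -1.42 and -1.31 on arrays 1 and 2 but 1.82 and 1.11 on arrays 3 and 4. The VIM3 probe gave -1.06 and -1.29 on arrays 1 and 2 and then 1.61 and 0.25. VIM4 followed the pattern of VIM2, at -0.96, -1.63, 2.22 and 0.61. VIM5 was at least 3.57-fold lower, its vim1,2,3 spot being above background on no array (adjusted p = 0.00315), and ORTHL was at 0.40 and not called. Whether these probes lie outside an insertion is not known from the sources used here, and VIM2 and VIM4 are close copies whose signals may mix. The red sample is therefore called the RNA labelled vim1,2,3, and counts are also given from arrays 1 and 2 alone.

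Median spot signals ran from 643.25 to 1280.5 in the Col channel and from 960 to 1727 in the vim1,2,3 channel, with 75.9% to 85.3% and 68.7% to 81.6% of probes well above background. The number of arrays, not counting depth, limits the precision. Across members, pairs of arrays correlated with r between 0.43 and 0.86, and the lowest was that of arrays 1 and 2. The 4 root markers were measured and not called, but in both channels they were brighter on arrays 3 and 4 than on arrays 1 and 2. PYK10 was below 0 on all 4 arrays, at -2.21, -1.29, -0.39 and -0.37 (mean -1.07, adjusted p = 0.0826). Its red spot was saturated on arrays 3 and 4. BGLU22, TIP2;3 and AT5G17820 lay between -0.07 and 0.30. The Col spot of the root marker AT5G17820 read 74 and 106.5 on arrays 1 and 2 and 8638 and 4446 on arrays 3 and 4, and that of PYK10 read 14140 and 4826 against 54190 and 51580. The red spot of AT5G17820 read 117 and 106.5 against 13310 and 8491. Arrays 1 and 2 therefore stand apart from arrays 3 and 4 in both RNAs. The 4 leaf markers were measured and not called either, but CAB1, RBCS1A and RCA were saturated in the red channel on all 4 arrays, so their ratios could hardly show a difference. Of the 3 flower markers, PI fell (log2 ratio of -2.20, adjusted p = 0.0113), AG was at -0.92 and AP3 at -0.60, neither called. AG passed the adjusted p (0.0449) but not 2-fold, and AP3 ranged from -2.26 on array 2 to 1.10 on array 4. In the vim1,2,3 channel each of the 3 cleared background on only 2 arrays. The part of these marker differences in the results below was not tested.

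Of the 181 measured genes in the range, 12 rose and 8 fell, which leaves 161 uncalled. The 12 rises are 6.63% of the members, where 3.22% of all 20525 genes tested and 2.93% of the 5213 other chromosome 1 genes rose. The 8 falls are 4.42% of the members, against 2.13% of all genes tested and 2.19% of the other chromosome 1 genes. Both shares were above those of the background. The series matrix had values for only 18 of the 20 members called above. With the scanner's processed signals, and likewise with the series matrix, the split was 12 rises to 13 falls. Of these rises 11 and 9 were shared with the 12 above. In those settings 3.82% and 3.38% of all genes fell, and 2.8% and 3.05% rose. Median centring gave 12 to 11, with 4.23% of all genes falling. With arrays 1 and 2 alone, 1 member (AT1G36580) was called higher and none lower, where 0.259% of all genes were called higher. Without array 1, 2, 3 or 4 the rises numbered 10, 17, 8 and 8, where 1.61%, 4.73%, 0.877% and 0.96% of all genes rose. The falls then numbered 5, 10, 2 and 1, where 1.05%, 2.87%, 0.156% and 0.283% of all genes fell.

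The middle of the distribution was close to that of the rest of the chromosome. The median log2 ratio of the members was -0.06, that of the other chromosome 1 genes -0.07 and that of all genes tested -0.05. The difference between the member median and the other chromosome 1 median was -0.03, -0.04, 9e-05 and 0.07 on arrays 1 to 4, a mean of 0.0016 ± 0.0503 (SD, n = 4), so the arrays did not share a direction. The spread was wider: the SD over genes of the log2 ratio was 0.89 among members and 0.60 among other chromosome 1 genes. At 2-fold or more regardless of p, 8.84% of members were up and 5.53% down, against 4.60% and 3.09% of the other chromosome 1 genes.

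**Figure D1:**
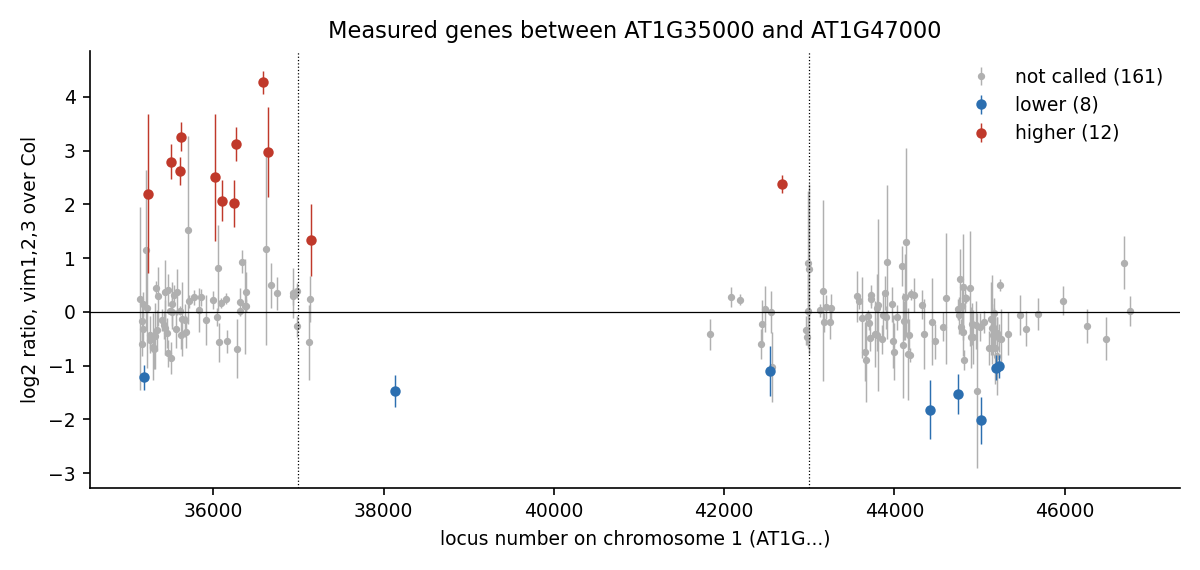
Log2 ratio (RNA labelled vim1,2,3 over Col, mean of 4 arrays) of each measured gene in the range, set out by locus number. Called genes are marked. The rises lie toward the left of the range, where AT1G36580 reaches 4.27, and most falls lie to the right.

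Most rises lay in the first stretch of the range and most falls in the last. In the first stretch, AT1G35000 to AT1G36999, 10 of 72 measured genes rose (13.9%, against 3.22% of all genes) and 1 fell, and the median log2 ratio was 0.14. Of its genes, 17 lay above 0 and 12 below at an unadjusted p under 0.05. These are 23.6% and 16.7%, against 15.1% and 18.2% of all genes. Among genes whose Col signal cleared background on 3 or 4 arrays, 8 of 70 rose there. In the last stretch, AT1G43000 to AT1G47000, 0 of 91 rose and 5 fell by the limma fit (5.50%, against 2.13% of all genes), and the median was -0.19. At an unadjusted p under 0.05, 4 genes of the last stretch lay above 0 and 22 below, or 4.40% and 24.2%, against 15.1% and 18.2% of all genes. The series matrix values called 2 of its genes higher and a fit with array weights called 1. Without array 1, 2, 3 or 4 the falls of the last stretch numbered 3, 6, 1 and 1, and its rises 0, 1, 0 and 0. The rises of the first stretch then numbered 9, 13, 7 and 7.

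The middle stretch, AT1G37000 to AT1G42999, has the most pseudogenes. They make up 265 of its 307 listed loci, only 29 have a probe and 18 were measured, of which 2 rose and 2 fell around a median of -0.12. The first stretch holds 137 pseudogenes among 258 loci, and the last 104 among 263. The stretches were compared after their counts had been seen, and no test of the split was run.

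**Figure D2:**
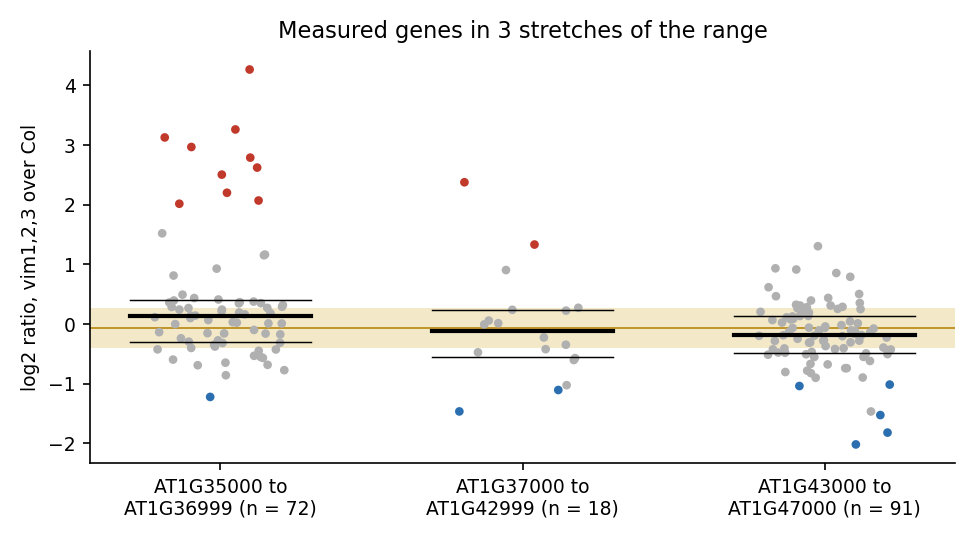
Log2 ratio (mean of 4 arrays) of every measured gene in the 3 stretches, with called genes marked and medians drawn. The median is 0.14 in the first stretch and -0.12 and -0.19 in the others.

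Set against the rest of the chromosome in bins of 1000 locus numbers, the bin starting at AT1G36000 had the highest share of rises. In it 6 of 27 measured genes rose (22.2%), more than in any other of the 74 chromosome 1 bins with at least 10 measured genes. Of these 6, AT1G36100 cleared background in Col on only 1 array. Second by share of rises came the bin starting at AT1G21000, with 10 of 75 (13.3%). The bin starting at AT1G45000 had the highest share of falls among the same 74 bins, 3 of 23 genes (13.0%), 1 of them AT1G45010 and the others close to 2-fold. The next bin by that share, starting at AT1G57000, had 3 of 24, among them VIM1 and VIM5. The AT1G35000 bin held 4 rises among 45 genes, and the AT1G43000 bin held no called gene among 28. Calls did not stop at the borders of the range: 4 of 53 genes rose in the bin before it, and 4 rose and 5 fell among 55 in the bin after it.

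**Figure D3:**
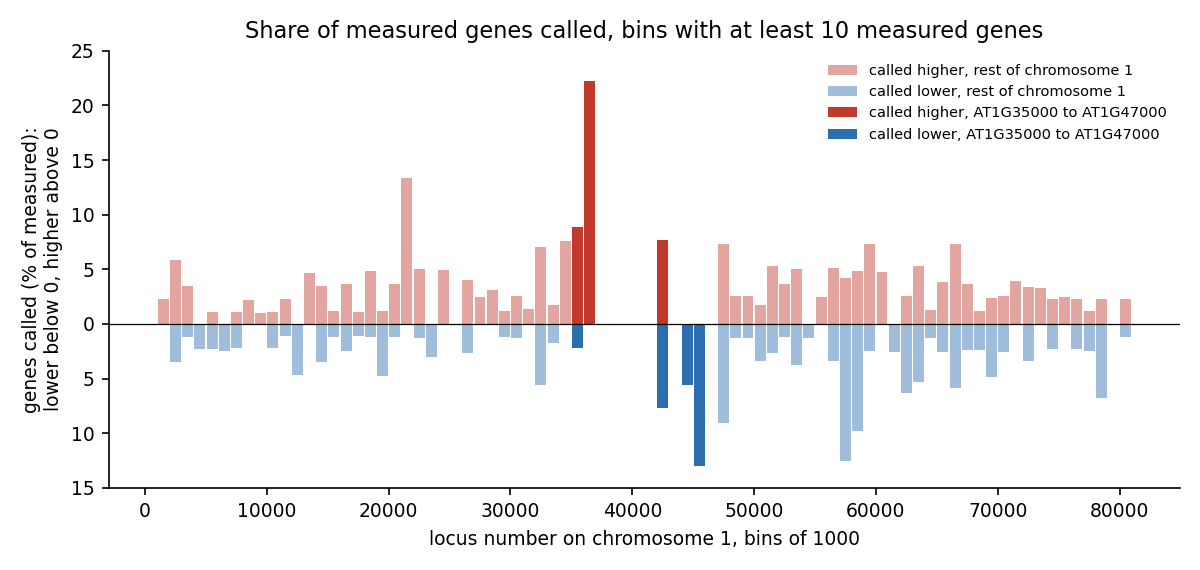
Share of measured genes called higher and lower (percent) in bins of 1000 locus numbers along chromosome 1. The AT1G36000 bin stands at 22.2% higher and the AT1G45000 bin at 13.0% lower.

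AT1G36580 was the strongest response of the range. Its log2 ratio was 4.32, 3.97, 4.28 and 4.50 on arrays 1 to 4, a mean of 4.27 ± 0.22 (SD, n = 4) or 19.2-fold (adjusted p = 6.365e-05). Its spot brightness was 272, 224, 502 and 393 in Col and 7080, 5218, 12620 and 11570 in the RNA labelled vim1,2,3. No array's vim1,2,3 value came near any Col value. It was the only called member that stayed called in every alternative. Its nearest measured neighbours, AT1G36390 at 0.37 and AT1G36622 at 1.17, were not called, although the second exceeds 2-fold in the mean with widely differing arrays.

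Near the start of the range, 2 adjacent genes rose together. AT1G35617 had log2 ratios of 3.13, 3.61, 3.30 and 3.00, a mean of 3.26 ± 0.26 (9.59-fold, adjusted p = 0.000207). Its Col spots read 95, 116, 108 and 102.5, above background on 3 of 4 arrays, and its vim1,2,3 spots read 1351, 2271, 1544 and 1178. AT1G35614 had log2 ratios of 2.489, 3.009, 2.503 and 2.489, a mean of 2.62 ± 0.26 (6.16-fold, adjusted p = 0.000526). The Col signal of AT1G35614 cleared background on 1 of 4 arrays, so the Col side of that ratio rests mostly on values near background. The next measured gene, PDIL5-2, a protein disulfide isomerase family member, was at -0.43 and not called. AT1G35500 lies close by and rose with log2 ratios of 2.69, 3.12, 2.97 and 2.38 (mean 2.79 ± 0.33, 6.92-fold, adjusted p = 0.000586). A second probe of AT1G35500, whose Col signal was above background on no array, gave 0.91. Its neighbours AT1G35490 and AT1G35510 were at 0.01 and -0.86 and were not called.

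The AT1G36000 bin held the densest group of rises. AT1G36272 had log2 ratios of 2.66, 3.35, 3.27 and 3.23 (mean 3.13 ± 0.32, 8.74-fold, adjusted p = 0.000327). Its Col spots read 163, 297, 500.5 and 289, and its vim1,2,3 spots 1518, 4448, 6194 and 3524, with no overlap. Directly before it among measured genes, AT1G36240 rose from Col signals of 5945, 7453, 6625 and 3861 to 29120, 40430, 48450 and 37430. That is a mean log2 ratio of 2.02 ± 0.43 (4.05-fold, adjusted p = 0.00509), and it was the brightest of the 12 rises in Col. Without array 3 its adjusted p was 0.055. On its other side AT1G36280 was at -0.68 and not called. AT1G36100 rose by 4.20-fold (mean log2 ratio 2.07 ± 0.38, adjusted p = 0.00341) from Col spots that cleared background on 1 of 4 arrays.

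Only 1 rise of comparable evenness lay outside the first stretch. AT1G42680, in the middle stretch, had log2 ratios of 2.22, 2.48, 2.25 and 2.57 (mean 2.38 ± 0.17, 5.196-fold, adjusted p = 0.000526). Its Col spots read 254, 263.5, 296.5 and 225, and its vim1,2,3 spots 1646, 2242, 1860 and 1751. Both sets were tight, and its SD was the smallest among the rises.

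**Figure D4:**
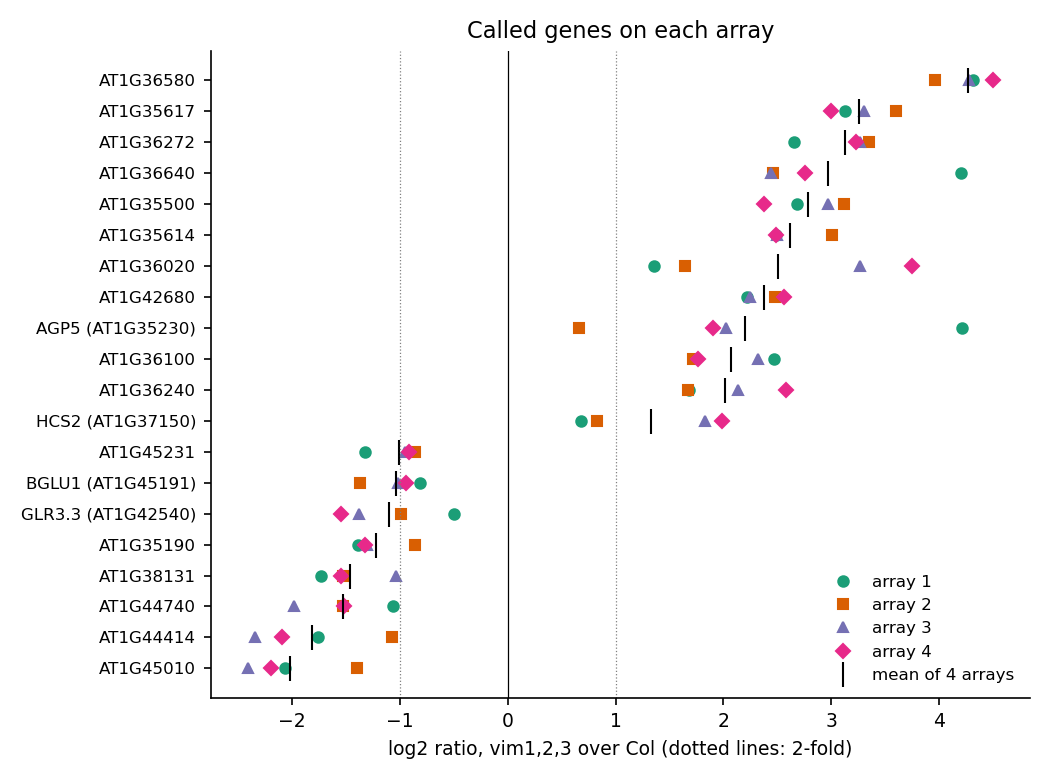
Log2 ratio on each of the 4 arrays (points) and their mean for the 20 called members. The 12 rises range from 1.33 to 4.27 and the 8 falls from -2.02 to -1.01, and AGP5, AT1G36020 and AT1G36640 show the widest scatter among the rises.

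The other 4 rises varied more between arrays, with SDs of 0.67 to 1.48 against 0.17 to 0.43 for the 8 rises above. AGP5, a cell-surface arabinogalactan protein, had log2 ratios of 4.21, 0.66, 2.02 and 1.91 (mean 2.20 ± 1.48, 4.60-fold, adjusted p = 0.0483). AGP5 lost its call without array 1, 3 or 4 (adjusted p = 0.0723, 0.168 and 0.139), from processed signals (0.0622), from the series matrix (0.0527) and when dim probes were not filtered (0.0627). AT1G36640 had 4.20, 2.46, 2.44 and 2.76 (mean 2.97 ± 0.84, 7.82-fold, adjusted p = 0.00687), again highest on array 1, and without array 4 its adjusted p was 0.0509. AT1G36020 showed the opposite order, with 1.36 and 1.65 on arrays 1 and 2 and 3.27 and 3.75 on arrays 3 and 4 (mean 2.505 ± 1.181, 5.68-fold, adjusted p = 0.0258). Without array 3 or 4 its adjusted p was 0.134 or 0.0923. Arrays 3 and 4 are also those with the brighter root markers, whose part in this gene and in HCS2 was not tested.

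HCS2 was the smallest rise. This gene encodes a holocarboxylase synthetase, an enzyme family that attaches biotin to carboxylases. Its log2 ratios were 0.68, 0.83, 1.83 and 1.99 (mean 1.33 ± 0.67, 2.52-fold, adjusted p = 0.0343). A second probe of HCS2 gave -0.05, and the mean of both probes, 0.64, was not called. It was the only called member with tested probes of opposite sign. Without array 1, 3 or 4 its adjusted p was 0.0582, 0.15 or 0.117.

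Most rises started from a dim Col signal. When all genes tested were divided by Col level into 3 classes of equal size, 10 of the 67 members in the lowest class rose (14.9%), against 80 of 1753 other chromosome 1 genes (4.56%). In the middle and highest classes, 1 of 43 and 1 of 71 members rose, against 53 of 1745 and 20 of 1715. The Col level is part of the ratio, so a dim Col spot and a high ratio are not independent. Among genes whose Col signal cleared background on 3 or 4 arrays, which leaves out AT1G35614 and AT1G36100, 10 rises among 178 members were counted (5.62%), against 2.67% of other chromosome 1 genes. No rise was saturated on any array.

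**Figure D5:**
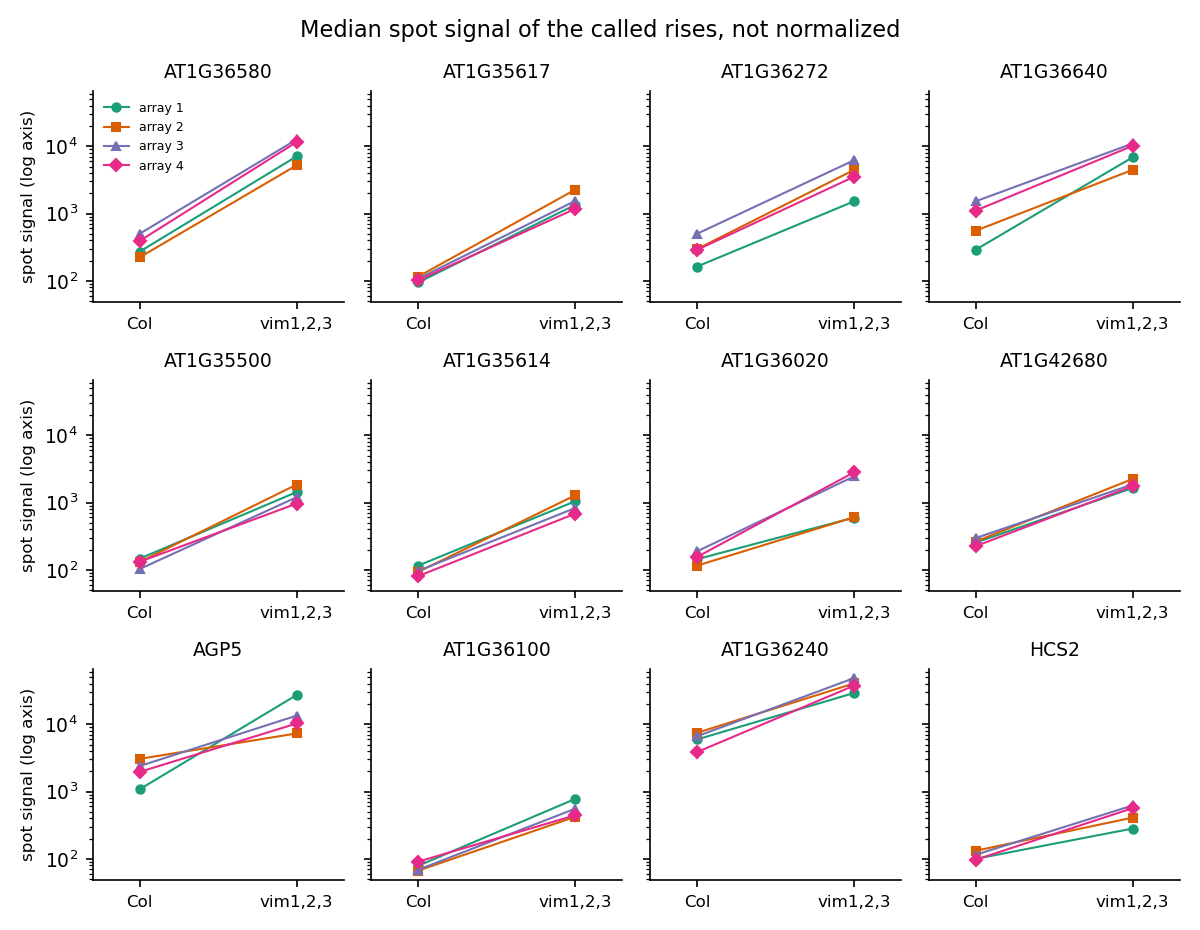
Spot brightness (median signal, log axis) of the 12 rises in Col and in the RNA labelled vim1,2,3 on each array. AT1G36580 goes from between 224 and 502 to between 5218 and 12620, while AT1G36240 starts from between 3861 and 7453.

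The falls were smaller than the rises. AT1G45010 fell the most and was the only fall of 4-fold or more, where 11 of the 12 rises reached that size. Its log2 ratios were -2.07, -1.40, -2.41 and -2.20, a mean of -2.02 ± 0.44 (4.05-fold, adjusted p = 0.00512). Its spots read 7498, 4204, 5108 and 2064 in Col and 2315, 2322, 1206 and 583 in the RNA labelled vim1,2,3, each lower than Col on its own array, although the ranges of both groups overlap. The other probes of AT1G45010 gave -1.94 and -1.51. It was the only fall that stayed called without each array in turn, and it was not called when the channels were fitted without pairing them by array (adjusted p = 0.123).

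AT1G44414 fell with log2 ratios of -1.77, -1.07, -2.34 and -2.09 (mean -1.82 ± 0.55, 3.53-fold, adjusted p = 0.0127). AT1G44414 is annotated as overlapping CH1, the chlorophyll a oxygenase that makes chlorophyll b. CH1 was at -0.18 and not called. Signals of overlapping genes may mix, since the probes' strands were not checked here. AT1G44740 fell with log2 ratios of -1.07, -1.53, -1.98 and -1.52 (mean -1.52 ± 0.38, 2.88-fold, adjusted p = 0.0108). AT1G38131 fell with -1.74, -1.53, -1.04 and -1.55 (mean -1.46 ± 0.30, 2.76-fold, adjusted p = 0.00916), and its second probe gave -1.62. Without array 3 or 4 the call was lost by AT1G44414 (adjusted p = 0.0833 and 0.0749) and by AT1G44740 (0.073 and 0.0659), and without array 4 by AT1G38131 (0.0608). AT1G38131 is the only called gene between AT1G37150 and AT1G42540 and has few measured neighbours.

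AT1G35190 was the single fall in the first stretch. Its log2 ratios were -1.39, -0.86, -1.31 and -1.32 (mean -1.22 ± 0.24, 2.33-fold, adjusted p = 0.013), and a second, dimmer probe gave -0.30. The mean of both probes, -0.76, was under 2-fold and not called. The glutamate receptor-like channel gene GLR3.3, whose product carries wound signals between leaves, fell with -0.50, -0.99, -1.38 and -1.54 (mean -1.11 ± 0.46, 2.15-fold, adjusted p = 0.0313). It overlaps PMI1, which acts in chloroplast movement and was at -0.01. BGLU1, of the beta-glucosidase family, fell by 1.04 ± 0.24 on the log2 scale (adjusted p = 0.0197), and AT1G45231 by 1.01 ± 0.21 (adjusted p = 0.0194). Both sit near the 2-fold threshold. Leaving out array 1, 3 or 4 ended the calls of AT1G35190 (adjusted p = 0.0512, 0.0951 and 0.0733), BGLU1 (0.0542, 0.117 and 0.0841) and AT1G45231 (0.066, 0.112 and 0.0818). GLR3.3 lost its call without array 3 or 4 (0.142 and 0.11), and BGLU1 without array 2 came to -0.93, under 2-fold.

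Other members moved past only one threshold. UBC31, of the E2 ubiquitin-conjugating family, had log2 ratios of 0.82, 0.69, 1.05 and 1.15, a mean of 0.93 ± 0.21 (adjusted p = 0.0239), just under 2-fold. In the same way GA20OX5, of the gibberellin oxidase family, was at 0.86 and AT1G46696 at 0.91. On the other side AT1G44820 was at -0.90, AT1G35510 at -0.86, AT1G44180 at -0.80 and RanBPM at -0.77. UBC31 was called higher in 3 alternatives (processed signals, series matrix and without array 2) and AT1G46696 in 2. AT1G44820, AT1G35510 and AT1G44180 were each called lower in 1. With these, 27 of the 181 members passed the adjusted p alone, 15 of them higher and 12 lower. Of all 20525 genes tested, 2378 did so, 1173 of them higher and 1205 lower.

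A further 6 members exceeded 2-fold in the mean without passing the test, and in most of them the arrays disagreed widely. AT1G35710 had log2 ratios of 3.48, -0.72, 1.33 and 1.99 (mean 1.52 ± 1.74, adjusted p = 0.145). AT1G44130 had 3.84, 0.24, 0.11 and 1.03 (mean 1.31 ± 1.73, adjusted p = 0.193). AT1G36622 and AT1G35210 were also above 3 on array 1, at 3.274 and 3.105, and below 0 on array 2, at -1.05 and -0.38. All 4 uncalled genes above 2-fold thus had their highest ratio on array 1. AT1G44970 was at -2.06, -3.15, -0.78 and 0.13, and MLO9, of the MLO membrane protein family, at -0.5245, -0.4057, -1.505 and -1.661 (adjusted p = 0.0551). MLO9 was called lower in 5 alternatives, and AT1G35710 was called higher without array 2 (2.27, adjusted p = 0.0318).

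Genes with known roles in the range mostly did not pass the test, but neither did most genes on the array. Of all genes tested, 3.22% rose and 2.13% fell. Of 4 members of the auxin response factor cluster, transcription factors that bind auxin-responsive promoters, 2 had a probe and neither was measured, with highest raw signals of 104 and 111.5. Of 15 transcription factors and regulators 14 were measured and none was called, with a median log2 ratio of -0.10. BZIP60 and RAP2.1 were saturated in the red channel on all 4 arrays. RAP2.1 was at 0.01 with that probe, and its other probes gave -0.70 and -1.40. ABF2 was at -0.51 with the probe used and at -1.10 with the other. At an unadjusted p under 0.05, 1 of the 14 was above 0 and 3 were below, where 15.1% and 18.2% of all genes were; the same shares apply to the lists that follow. The smallest adjusted p was that of SEU, a transcriptional co-regulator of flower development, at -0.51 ± 0.26 (adjusted p = 0.0845). AT1G36060 was at 0.81 (adjusted p = 0.126), and WOX4, a homeobox regulator of the vascular cambium, at -0.50 (adjusted p = 0.129).

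The 8 chloroplast and photosynthesis genes were all measured, and none was called (0 above and 2 below 0 at an unadjusted p under 0.05). Their median was -0.23, but GAPB, RPL21C, NPQ4 and Lhca5 were saturated in the red channel on at least 1 array, which lowers a ratio. The 4 never saturated lay between -0.74 and 0.37. GAPB, a subunit of the Calvin cycle enzyme glyceraldehyde phosphate dehydrogenase, was at -0.47 ± 0.15 (adjusted p = 0.078). Its vim1,2,3 spot was saturated at 65290 on all 4 arrays, so the ratio is a bound on that side, and the other probes of GAPB gave 0.39 and 0.33. AT1G44000 was at -0.74 (adjusted p = 0.0819) and RPL21C, a plastid ribosomal protein gene, at -0.38 (adjusted p = 0.173), saturated in the red channel on 3 of 4 arrays, with -0.09 from its other probe. NPQ4, which encodes the photoprotective PsbS protein, was at -0.28 with its brightest probe, saturated in the vim1,2,3 channel on 3 of 4 arrays, and at 0.65 with the other.

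Of 13 genes of carbon, nitrogen and lipid metabolism 12 were measured, 1 rose (HCS2) and none fell, with 6 below 0 at an unadjusted p under 0.05. The median of these 12 was -0.46. ACC1, the acetyl-CoA carboxylase that supplies fatty acid elongation, was at -0.55 ± 0.22 (adjusted p = 0.0661), and EMB1075 at -0.49 ± 0.23 (adjusted p = 0.0857). FBP, the cytosolic fructose bisphosphatase of sucrose synthesis, was at -0.90, with arrays between -1.90 and -0.07, and was called lower with median centring (-1.04). NIA2, the main nitrate reductase, was at -0.57, with arrays between -1.55 and 0.06. The other probes of NIA2 gave -0.39 and 0.39. FBP and NIA2 were chosen after their values were seen.

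The translation and protein turnover list held 9 genes, of which 6 were measured. Of these AT1G36240 rose, UBC31 came just under 2-fold, and the remaining 4 lay between -0.40 (AT1G45332) and -0.19 (ATUBC2-1). Of 12 measured signalling, transport and hormone genes 1 fell (GLR3.3) and none rose, around a median of -0.07. An unadjusted p under 0.05 was reached by 1 gene above 0 and 2 below. RAB18 and TRX5 were saturated in the red channel on all 4 arrays, so their ratios could hardly show a rise. The other RAB18 probes gave 0.78 and 0.56, against 0.35 from the probe used. UMAMIT22, of an amino acid transporter family, was at -0.74 ± 0.55 (adjusted p = 0.0838). Neither measured gene of the replication and cell cycle list was called, and none had an unadjusted p under 0.05. MCM2, a subunit of the replicative helicase, was at -0.48 ± 0.56 with its brightest probe, and a second probe gave 1.60, 1.31, 1.01 and 0.73. The cyclin gene CYCA1;1 was at -0.16.

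Of the 52 members with at least 2 tested probes, 18 had probes of opposite sign, and in 4 (AT1G35500, HCS2, MCM2 and RAP2.1) the probes differed by 1 or more on the log2 scale. A further 83 members had a probe but were not measured, 54 of them above background in neither channel on any array. Their log2 ratios ran from -0.33 to 1.39 with a median of 0.04. The share of loci with a probe that were measured was 68.6% in the range and 82% on the rest of chromosome 1. The members at the ends of the range, AT1G35030 and AT1G46984, were not measured; just outside, AT1G34930 was not measured and VFB1, an F-box gene, was at -0.49 and not called.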

How the data were processed

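Expression was measured on 4 two-colour Agilent arrays, with Col in Cy3 and the RNA labelled vim1,2,3 in Cy5. Per the file headers, spots were quantified by Agilent Feature Extraction, version 10.7.3.1. The deposited files give each spot's and its surroundings' brightness as a linear intensity, and the pixel medians were taken. The deposited processed signals had been background-subtracted and dye-normalized by the authors' scanner software, and per the file headers its own log ratio is on the log10 scale, red over green. Values in the deposited series matrix are on the log2 scale. They matched the scanner's ratio in scale and direction (r = 0.998 to 0.999), with medians of -0.09, 0.01, -0.04 and -0.03, and how they were normalized or centred is not given.

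R 4.3.3 was used with limma 3.58.1; the reading package data.table had version 1.17.8. After normexp background correction (offset 50) came loess within each array, where control spots had weight 0. Spots of a probe were averaged. Of 43603 probes 34185 matched a locus through RefSeq's TAIR10.1 gene list, which served for names and gene order only, because the array header names an older build; no coordinates or sequences are given. A gene was represented by its brightest tested probe. One limma fit with eBayes covered all 20525 genes, with Benjamini-Hochberg adjustment over all of them, and the procedure was tested on simulated data. Taking ratios pairs the RNAs of each array, which does the work of a replicate block.

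Members and gene lists were chosen with earlier results of these data known. Genes were named by rule: the 12 largest rises and 8 largest falls, up to 3 genes per list with the smallest adjusted p, the measured neighbours of the 5 largest rises, the called gene with probes of opposite sign, the 3 members brightest in Col, the VIM family and the ends of the range. The 6 genes past 2-fold without a call, those past the adjusted p alone and the overlapping genes were named after their values were seen. Alternatives are given at the end. The pollen and seed marker lists had 1 measured gene each (0.03 and 0.42, not called).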

Additional observations from a re-analysis of the deposited data

Results flagged for a closer look

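In 50 groups of 4 arrays that were screened, 4 genes had 1 array far from the other 3, where chance gives about 1 in 20, and all 4 stood apart on array 2. AT1G35614 was at 3.01 on array 2 and between 2.489 and 2.503 on the others. AT1G35190 was at -0.865 on array 2 and between -1.39 and -1.31 elsewhere. AT1G36280 was at 0.14 on array 2 and between -1.06 and -0.88 on the others. ORTHL, a member of the VIM family, was at 1.43 on array 2 and between -0.09 and 0.16 on the others. Array 2 also had the lowest weight (0.612) when arrays were weighted by their fit.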

How the results depend on the processing

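Leaving out each array in turn gave 8 to 17 rises and 1 to 10 falls among members, a member median of -0.08 to -0.05 and a median difference from the other chromosome 1 genes of -0.01 to 0.01. It gave 7 to 13 rises in the first stretch, and 0 to 1 rises and 1 to 6 falls in the last. A total of 7 rises and 1 fall kept their call without each array. With arrays 1 and 2 only, 1 rise (in the first stretch) and 0 falls were called, with fewer arrays in the fit. A fit of the separate channels with no replicate block kept all 12 rises and called 3 falls, 2 of them in the last stretch. The share of all genes called in that fit is not given here. Starting from processed signals gave 13 falls, and starting from the series matrix also 13, of which 8 lay in the last stretch, so the split of 12 rises to 8 falls became 12 to 13. Rises in the last stretch numbered 2 with the series matrix (AT1G43000 and AT1G46696) and 1 with array weights. The member median was -0.20 from processed signals (all genes -0.14), -0.16 from the series matrix (all genes -0.11) and -0.14 after centring each array on its median (all genes -0.16). It was 0.011 with no filter, -0.13 when both channels had to be above background and -0.0060 with the mean of a gene's probes, and the median difference was -0.071 when both channels had to be above background. Values of uncalled genes changed sign as follows. AT1G35490 was at -0.22 with processed signals, -0.0088 to 0.020 with an array left out and -0.013 on arrays 1 and 2. VIM2 was at -0.14 with processed signals, -0.042 with median centring, -0.54 to 0.54 with an array left out (-0.30 without array 4), and -1.36 on arrays 1 and 2. VIM4 was at -0.11 with processed signals and also -0.11 with the series matrix, -0.19 with median centring, -0.66 to 0.62 with an array left out (-0.12 without array 4), and -1.30 on arrays 1 and 2. VIM3 was at 0.18 with array weights and -0.70 to 0.27 with an array left out (0.19 without array 1). With the mean of probes GAPB was at 0.080, MCM2 at 0.34 and NPQ4 at 0.19. Apart from the effect of fewer arrays, the cause of these changes was not tested. The alternatives for the stretches were chosen after seeing the data. The planned promoter and product classes were not run.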

Other observations

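Genes for major latex protein-like proteins, a plant family named after proteins of poppy latex, lie in the first stretch, where rises outnumbered falls, and 2 of them, both below 0 on all arrays, were just short of the test. MLP165 was at -0.39, -0.46, -0.75 and -0.52 (mean -0.53 ± 0.15, adjusted p = 0.0611), and MLP168 at -0.83, -0.16, -0.72 and -1.04 (mean -0.69 ± 0.38, adjusted p = 0.0611). The red spot of MLP168 never cleared background. With the scanner's processed signals both were called lower, at -1.25 and -1.86. They were chosen after their values were seen.

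Of the 83 members with a probe that were not measured, 3 had ratios of 2-fold or more, all upward. No such count for unmeasured genes outside the range is given here. PUM9, of the Pumilio family of RNA-binding proteins, was at 1.39 ± 0.93, AT1G36078 at 1.16 ± 0.44 and AT1G37113 at 1.03 ± 0.96 (SD, n = 4). On 2 of 4 arrays the red spot of each cleared background, and the Col spot did so on none.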
